A study of Mus musculus with 6 samples.

Results

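The cerebellin, neurexin and GluD synapse organizers were followed as a list of 7 genes, Cbln1, Cbln2, Cbln3, Cbln4, Nrxn2, Nrxn3 and Grid1, among the 55341 gene symbols of each count table. The list was drawn up by gene family and synaptic function, with earlier results of these data known. All 7 genes were present as rows of every table. Poly(A) RNA had been sequenced from mouse cerebellar granule neurons (CGNs) grown in culture in 2 groups, 3 libraries from cultures given the vehicle DMSO and 3 from cultures given GSK-126, an inhibitor of the histone methyltransferase EZH2, which places the repressive mark H3K27me3. The neurons were purified on Percoll from pooled litters of CD-1 IGS mice at postnatal days P6 to P8 and treated with the antimitotic AraC, and the libraries of each group were numbered 1 to 3. The labels give no dose and no day in culture. Per the study's methods, inhibitors were added a single time, on 1 of 2 early days in culture. Treated cultures were then assayed on the same later day. The comparison asks whether the genes of this synapse changed when EZH2 was inhibited.

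At the parallel fibre synapse the granule neuron is the presynaptic cell and the Purkinje cell the postsynaptic cell. The granule neuron secretes cerebellin, a C1q-family protein that is held between neurexin on the axon terminal and a GluD receptor on the Purkinje cell, so that the 3 proteins bridge the synaptic cleft. Neurexins bind cerebellins when they carry the peptide encoded by a small alternative exon at splice site 4. Cbln1 is the main cerebellin of granule neurons and Cbln3 assembles with it into mixed complexes. Grid1 encodes GluD1, a receptor of the GluD family.

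The alternative exon of Nrxn3 is shown because it decides whether the protein can take part in this bridge, and because the counts per gene pool transcripts with and without it. It was found in the GRCm38 annotation as the exon of 90 bases inside coding transcripts of the gene. It lies on chromosome 12 at 90199147 to 90199236 on the plus strand, and 4 of the 5 coding transcripts that span it include it. Capitals mark the bases of the exon.
Nrxn3: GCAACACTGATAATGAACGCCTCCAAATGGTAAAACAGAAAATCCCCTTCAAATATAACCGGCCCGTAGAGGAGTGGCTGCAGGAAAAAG

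The second coding exon of Cbln1 and Cbln3, each 120 bases, is shown because these were the cerebellins with more than trace counts and because near-identical genes could share reads. The Cbln1 exon lies on chromosome 8 at 87471692 to 87471811 and the Cbln3 exon on chromosome 14 at 55883467 to 55883586, both on the minus strand, and capitals mark the 72 bases (60%) identical in both.
Cbln1: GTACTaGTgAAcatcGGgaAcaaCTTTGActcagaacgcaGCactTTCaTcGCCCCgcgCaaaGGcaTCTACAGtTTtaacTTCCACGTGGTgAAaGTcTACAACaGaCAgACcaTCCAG
Cbln3: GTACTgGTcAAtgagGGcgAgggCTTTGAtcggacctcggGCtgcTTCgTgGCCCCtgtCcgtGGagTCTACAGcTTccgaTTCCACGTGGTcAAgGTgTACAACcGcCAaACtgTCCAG
The longest run of identical bases between transcripts of Cbln1 and Cbln3 was 21 bases, and across the 6 pairs of cerebellin genes it ranged from 13 to 21.

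The libraries held between 8058760 and 12047837 counts on genes, with 21943 to 23432 genes above 0, so that 3 counts, taken as the floor of detection, corresponded to 0.249 to 0.372 CPM. CPM denotes counts per 1000000 counts on genes, with library sizes scaled by the trimmed mean of M values (TMM). DMSO and GSK-126 libraries with the same number deviated together from their group means, with a correlation of 0.351, 0.503 and 0.517 over 16343 genes. The 6 mismatched pairs lay between -0.41 and -0.01. Deviations from a group mean cancel out within the group, so positive matched pairs force negative mismatched pairs on average. The mismatched pairs are therefore not separate evidence of pairing. Each change is given from a fit that treats the 6 libraries as independent and from a fit that also holds a term for the replicate number, called the replicate block. The test was edgeR's quasi-likelihood test in both, with Benjamini-Hochberg adjustment over 16343 genes. CGN cultures hold other cells too. The summed level of 6 astrocyte markers was 2174 to 6875 CPM in DMSO and 2280 to 7123 CPM in GSK-126, lowest in replicate 2 of both groups. Of the Purkinje cell markers, Ppp1r17 was at or under 3 counts in every library. Pcp2 lay between 1.65 and 3.13 CPM and Calb1 between 8.33 and 20.2 CPM, while Slc1a6 was at 17.1 to 43.5 CPM and Rora at 132 to 160 CPM. Car8 lay between 0.118 and 5.30 CPM. The 6 Purkinje cell markers summed to 166 to 197 CPM in DMSO and 193 to 220 CPM in GSK-126. Most of that sum was Rora, with a mean of 142 CPM in DMSO and 150 CPM in GSK-126. The sum is therefore not a measure of Purkinje cell content.

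Cbln1 and Cbln3, the cerebellins of granule neurons, were lower in GSK-126 in all 3 replicates. Cbln1 (chromosome 8, 87468405 to 87472609, minus strand) gave 714, 1334 and 899 CPM in DMSO replicates 1, 2 and 3, and 507, 979 and 571 CPM in the GSK-126 replicates. Replicate 2 was the highest library of each group, and the groups overlapped because GSK-126 replicate 2 exceeded DMSO replicates 1 and 3. Within replicates, Cbln1 stood at 71.1%, 73.4% and 63.5% of its DMSO partner. The mean fell from 982 ± 318 to 686 ± 256 CPM (SD, n = 3 each). With the replicate block Cbln1 changed by -30.8% (95% confidence interval -40.4% to -19.6%, log2 fold change -0.53, SE 0.0983, edgeR adjusted p = 0.0144). Without the block the estimate was -0.52 with an SE of 0.306 (edgeR adjusted p = 0.839). Leaving out replicate 2 or replicate 3 ended the call with the block (edgeR adjusted p = 0.103 and 0.170).

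Cbln3 (chromosome 14, 55878913 to 55884392, minus strand) gave 104, 184 and 83.7 CPM in DMSO and 27.5, 80.6 and 35.1 CPM in GSK-126. Every GSK-126 library lay below every DMSO library, by a narrow margin between GSK-126 replicate 2 and DMSO replicate 3. Non-overlap in this direction was found for 889 of all genes tested (5.44%). Within replicates Cbln3 stood at 26.7%, 44.0% and 42.1% of its DMSO partner. The change with the replicate block was -63.3% (95% confidence interval -70.7% to -54.0%, log2 fold change -1.45, SE 0.148, edgeR adjusted p = 8.30e-04). Cbln3 kept its call when any replicate pair was left out, with the log2 fold change between -1.57 and -1.22. Without the block the log2 fold change was -1.38 (SE 0.428), and the edgeR p of 0.0114 became 0.806 after adjustment.

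Cbln3 was the lower of the pair and its estimate the larger. Per kilobase of exon, Cbln3 stood at 9.06%, 8.60% and 5.81% of Cbln1 in DMSO and at 3.38%, 5.14% and 3.83% in GSK-126. The exon length pools all annotated transcripts, 4866 bases for Cbln3 and 3037 for Cbln1. The level of these shares depends on it, while their comparison between the groups does not. All 3 GSK-126 shares lay below all 3 DMSO shares. The log2 ratio of Cbln3 changed by more than that of Cbln1 in 3 of 3 replicates, by -1.41, -0.74 and -0.59, a mean of -0.92 ± 0.44 (SD). A two-sided exact permutation test that flips the sign of each replicate's difference gave p = 0.25, the smallest that this test can give with 3 pairs, so it could not pass the 0.05 level. Of all cerebellin CPM, Cbln1 made up 87.1%, 87.8% and 91.4% in DMSO and 94.5%, 92.2% and 94.0% in GSK-126.

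**Figure D1:**
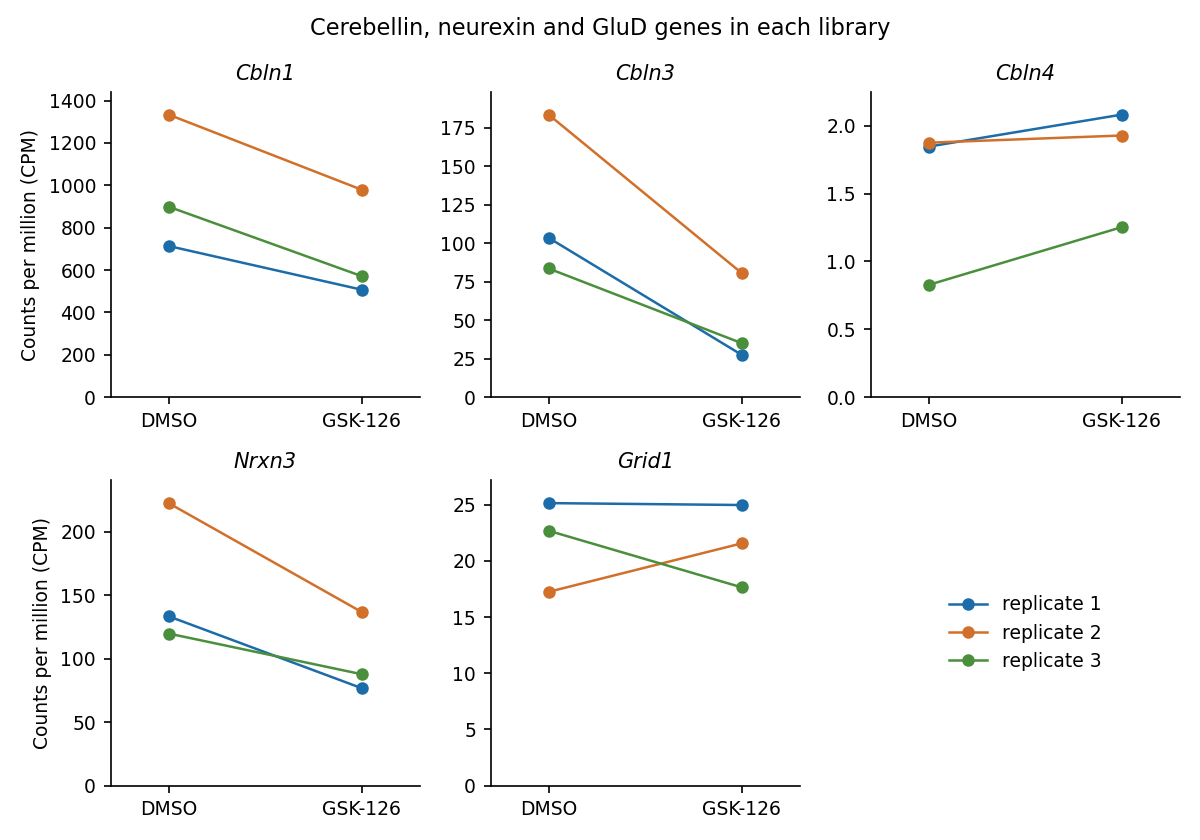
CPM of the tested genes in each library, with DMSO and GSK-126 on the x axis, 1 colour per replicate number, lines joining libraries of the same number and each y axis starting at 0. Cbln1, Cbln3 and Nrxn3 went down along every line, while the lines of Grid1 went both ways and Cbln4 lay near 1 to 2 CPM.

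Cbln4 and Cbln2, the cerebellins used by other brain neurons, were near the floor. Cbln4 (chromosome 2, 172036233 to 172043466) had 16, 15 and 7 counts in DMSO and 25, 16 and 11 in GSK-126, between 0.827 and 2.08 CPM. The groups overlapped, and the log2 fold change with the block was 0.24 with an interval that reached from a 42.8% decrease to a 143% increase (percent change 18.0, interval -42.8 to 143, edgeR adjusted p = 0.864). Cbln2 (chromosome 18, 86711110 to 86718283) had 2, 1 and 0 counts in DMSO and 0, 7 and 1 in GSK-126. Of its 6 libraries, GSK-126 replicate 2 alone exceeded 3 counts, and Cbln2 did not pass the filter on low counts. No difference between the groups was detectable for Cbln4 or Cbln2 at this depth.

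Nrxn3 (chromosome 12, 88722876 to 90334935, plus strand), a presynaptic cerebellin receptor, gave 133, 223 and 120 CPM in DMSO and 76.8, 137 and 87.8 CPM in GSK-126. The groups overlapped through GSK-126 replicate 2, which lay above DMSO replicates 1 and 3. Within replicates Nrxn3 stood at 57.6%, 61.5% and 73.3% of its DMSO partner. It changed by -36.3% with the block (95% confidence interval -46.3% to -24.5%, log2 fold change -0.65, SE 0.112, edgeR adjusted p = 0.0110). Without the block the log2 fold change was -0.66 with an edgeR adjusted p of 0.825. The adjusted p with the block was 0.0668 by edgeR when replicate 2 was left out. Of the Nrxn3 exon bases, 439 (3.48%) overlap exons annotated on the opposite strand, and since the strand setting of the counting is not given in the sources used here, reads of the 2 strands cannot be told apart there.

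Nrxn2 (chromosome 19, 6418731 to 6544169) was listed at 2 counts in DMSO replicate 1 and at 0 in the other 5 libraries. This value was not specific to Nrxn2. It lies in a run of 13 consecutive protein-coding genes, from Majin to Slc22a12 over 359 kilobases (6184388 to 6543032), that held 2 counts in all 6 libraries together. The run includes Men1, Sf1 and Ehd1, which are used by many cell types. Of the 24 protein-coding genes flanking it, 18 had over 100 counts, with a median of 1215 over the 24. The counts are therefore not a measure of Nrxn2 expression and no fold is given. The cause of the empty run was not tested.

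**Figure D2:**
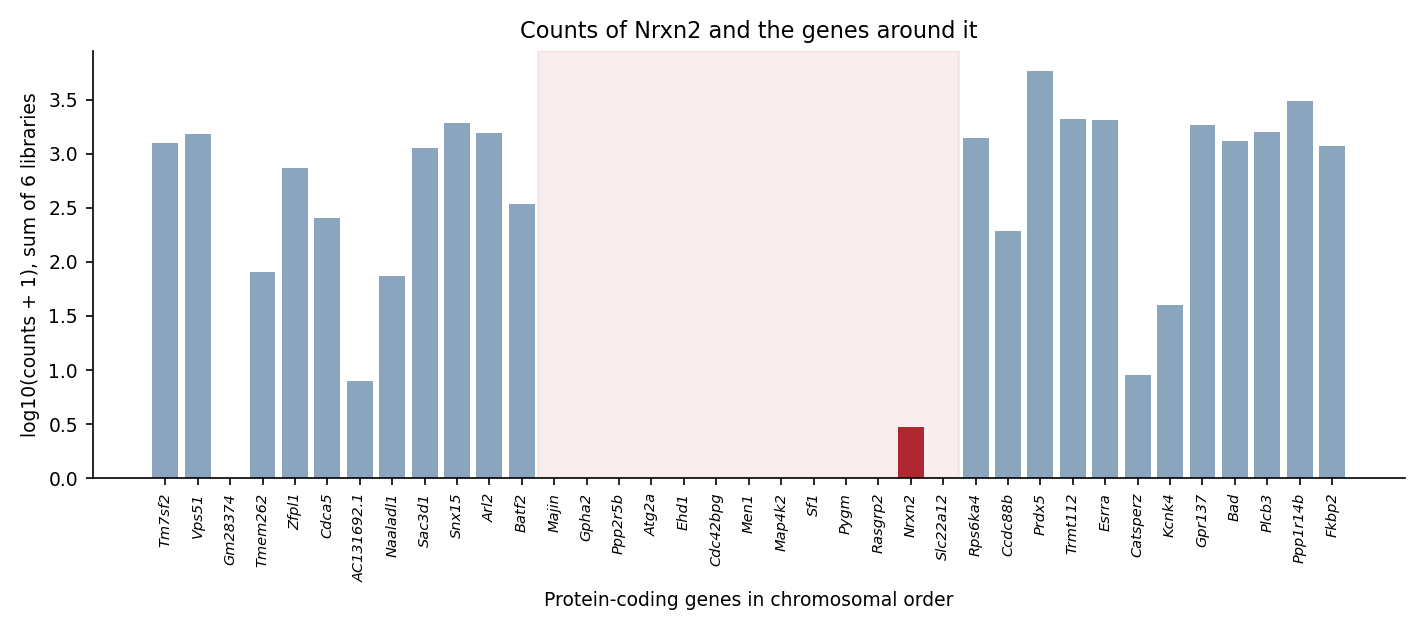
Counts summed over the 6 libraries, as log10(counts + 1) on the y axis, for protein-coding genes in chromosomal order around Nrxn2. The shaded run of 13 genes holds 2 counts, all of Nrxn2 (red), while 18 of the 24 flanking genes exceed 100 counts.

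Grid1, the GluD receptor of the list, did not move in a shared direction. It (chromosome 14, 34820108 to 35583379) gave 25.2, 17.3 and 22.7 CPM in DMSO and 25.0, 21.6 and 17.7 CPM in GSK-126. Grid1 was higher in replicate 2, lower in replicate 3 and at 99.4% of its partner in replicate 1. Its change with the block was -1.27%, with a 95% confidence interval from -24.6% to 29.4% (edgeR adjusted p = 0.975). The interval holds changes of this size in either direction, and it is not a limit of detection for a call over all genes.

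Across the list, 3 of the 7 members passed the threshold in the fit with the replicate block, Cbln1, Cbln3 and Nrxn3, and all 3 were lower. Of all genes tested, 232 (1.42%) were called lower and 365 (2.23%) higher in that fit. DESeq2 with the same block called the same 3 members lower, with 1.63% of all genes called lower, and its adjusted p was 2.90e-04 for Cbln1, 1.61e-13 for Cbln3 and 3.63e-04 for Nrxn3. The same 3 members were lower in 3 of 3 replicate pairs, which held for 19.3% of all genes. Cbln4, near the floor, was higher in 3 of 3 pairs, as were 3223 of the 16343 genes tested. Without the block edgeR called 0 of the 7 members and 0% of all genes. In that fit 2 members, Cbln3 and Nrxn3, had an unadjusted p under 0.05, as did 981 of all genes tested, and DESeq2 without the block called 0 members and 0.361% of all genes. The median log2 fold change with the block was -0.53 over the 5 members tested and -0.002 over all genes.

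**Figure D3:**
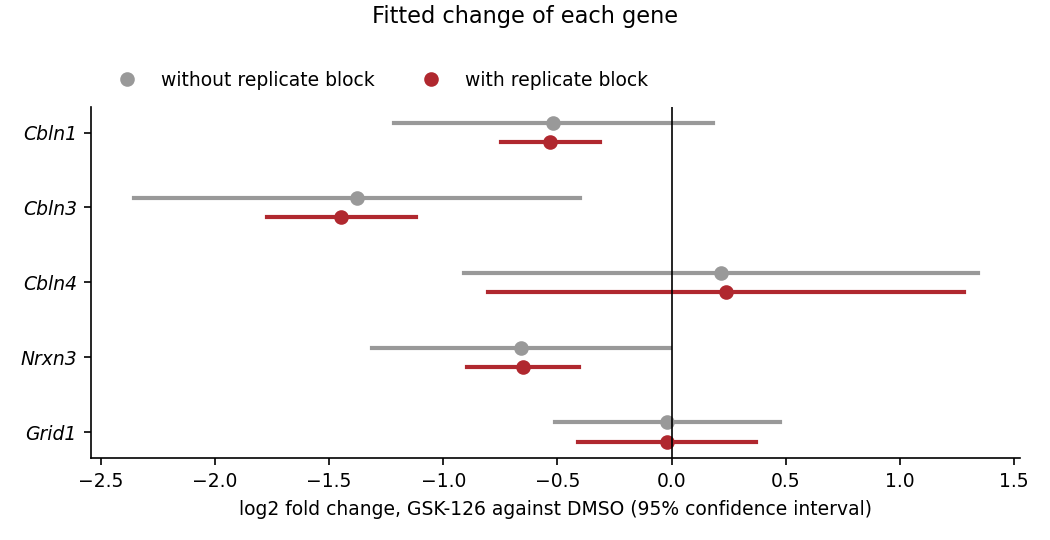
Fitted log2 fold changes (GSK-126 against DMSO, x axis) of the 5 tested members, without (grey) and with (red) the replicate block, with 95% confidence intervals as bars. The point estimates nearly coincide in the 2 fits, and for Cbln1, Cbln3 and Nrxn3 the bars are shorter with the block.

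On the scale of CPM per kilobase of exon, Cbln1 was the most abundant of these genes in DMSO, at 323 ± 105 (SD, n = 3). Cbln3 followed at 25.4 ± 10.9 and Nrxn3 at 12.6 ± 4.43. Grid1 at 3.64 ± 0.678 and Cbln4 at 0.522 ± 0.206 closed the order. The order depends on the exon length, which pools all annotated transcripts of a gene. The DMSO ranges of Cbln3 and Nrxn3 overlapped, at 17.2 to 37.7 and 9.52 to 17.7 CPM per kilobase, while the other neighbours in this order did not overlap. In GSK-126 Cbln3 stood at 5.65 to 16.6 and Nrxn3 at 6.09 to 10.9 CPM per kilobase, again overlapping.

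The members that fell did so beside granule neuron markers. The summed level of 8 granule neuron markers was 3204, 4692 and 3524 CPM in DMSO and 2276, 3368 and 2563 CPM in GSK-126. The log2 ratios of that sum within replicates were -0.49, -0.48 and -0.46. Those of Cbln1 were -0.49, -0.45 and -0.66, those of Nrxn3 -0.80, -0.70 and -0.45, and those of Cbln3 -1.91, -1.19 and -1.25. The sum is weighted by level, and Zic1, Neurod1 and Zic2 averaged 1506, 708 and 586 CPM in DMSO. Single markers differed widely from it. In bulk samples, fewer cells of a type and less RNA per cell cannot be told apart. With the block 5 of the 8 markers were called lower by edgeR, beside 1.42% of all genes tested. Slc17a7, the vesicular glutamate transporter, changed most (-2.16, adjusted p = 3.40e-04), followed by Gabra6, a GABA-A receptor subunit of granule neurons (-1.42, adjusted p = 3.40e-04). Etv1 (-1.06), Rbfox3 (-0.59) and Neurod1 (-0.58) were the other 3. Zic1 (-0.37, edgeR adjusted p = 0.0535) and Zic2 (-0.27, edgeR adjusted p = 0.212) were lower in 3 of 3 replicates and not called. Pax6, a transcription factor of the granule lineage, gave a log2 fold change of 0.04 (edgeR adjusted p = 0.895), at 164 to 183 CPM in DMSO and 174 to 194 CPM in GSK-126.

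Of the marker sums of other cells, some also fell within replicates and others did not. The summed GABAergic interneuron markers had within-replicate log2 ratios of -0.41, -0.31 and -0.41, with 1 of 6 markers, Slc32a1, called lower by edgeR with the block. The astrocyte sum had ratios of 0.05, 0.07 and -0.18, with 0 of 6 markers called, and Gfap ranged from 760 to 2552 CPM in DMSO and from 936 to 3191 CPM in GSK-126. The microglial sum was 157 to 261 CPM in DMSO and 180 to 414 CPM in GSK-126, with ratios of 0.88, 0.19 and 0.13 and 0 of 5 markers called. Oligodendrocyte lineage markers had 0 of 6 called, the cycling cell markers 0 of 3 tested, Purkinje cell markers 1 of 4 tested (higher), unipolar brush cell markers 1 of 2 (lower) and endothelial and mural cell markers 1 of 3 tested (higher). In the same fit 1.42% of all genes tested were called lower and 2.23% higher. Within replicates the endothelial and mural sum had log2 ratios of 0.71, 0.48 and 0.54, and the unipolar brush cell sum, at 5.33 to 20.0 CPM, had ratios of -0.79, -0.85 and -0.50. The part of these shifts in the results for Cbln1, Cbln3 and Nrxn3 was not tested.

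**Figure D4:**
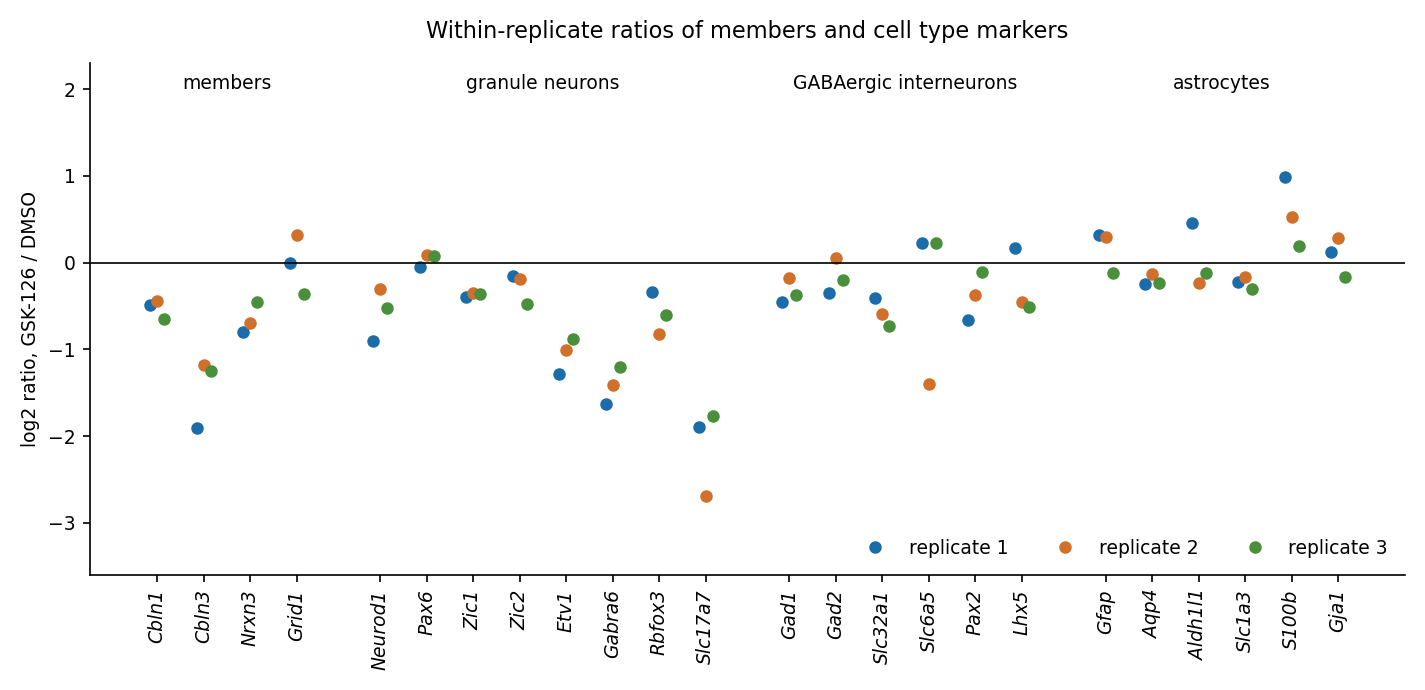
Log2 ratios of GSK-126 to DMSO within each replicate number (y axis, 1 colour per replicate) for 4 members and for markers of granule neurons, GABAergic interneurons and astrocytes. Cbln1, Cbln3 and Nrxn3 lie below 0 in 3 of 3 replicates, as do 7 of the 8 granule neuron markers, while 2 of the 6 astrocyte markers do. The same held for 19.3% of all genes tested.

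The genes whose log2 CPM followed each member most closely over the 6 libraries were listed as a description, among 11419 genes with a mean of at least 10 CPM. All points share the same 6 libraries and their cell composition. Each value is among the highest of 11419 over only 6 points, so r near 1 can come from the search alone. It also does not measure the size of a change. Cbln1 was followed by Nrep (Pearson's r = 0.996), Gm11646 (0.994) and Nefl (0.993), Cbln3 by Sars2 (0.999), Vsnl1 (0.997) and Gm12977 (0.996), and Nrxn3 by AW554918 (0.999), Atp8a1 (0.997) and Fnbp1 (0.997). Grid1 was followed by Clspn (0.999), Dtl (0.984) and Gabpa (0.982), and Cbln4, with 25 counts or fewer, by Zdhhc24 (0.983), Gxylt1 (0.979) and Timm10b (0.979). Among the members, r was 0.911 between Cbln1 and Cbln3, 0.946 between Cbln1 and Nrxn3 and 0.973 between Cbln3 and Nrxn3. Grid1 against Cbln1, Cbln3 and Nrxn3 lay between -0.42 and -0.25.

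The wider set of synaptic organizers comprised 75 genes in 6 lists, of which 72 were tested. With the block edgeR called 3 of them higher and 5 lower, beside the 2.23% and 1.42% of all genes, and their median log2 fold change was -0.16. Without the block edgeR called 0 of them, with 9 at an unadjusted p under 0.05, and DESeq2 called 1, Clstn2. The neurexin-associated presynaptic scaffold had 11 of 11 genes with a negative estimate and a median of -0.24. Of these 11, 7 were lower in 3 of 3 replicates, as were 3150 of the 16343 genes tested, and 2 passed the threshold. Negative estimates were found for 48 of the 72 organizer genes and for 8234 of the 16343 genes tested. Lin7a, a subunit of the complex with Cask, gave 79.1, 118 and 74.8 CPM in DMSO and 40.7, 86.2 and 52.7 CPM in GSK-126. It was lower in each replicate and the groups overlapped (log2 fold change -0.64, SE 0.129, edgeR adjusted p = 0.0221). Ppfia4, a liprin-alpha of the active zone, gave 52.7, 139 and 58.0 CPM against 27.4, 62.7 and 48.2 CPM, also lower in each replicate with overlap (-0.80, SE 0.161, edgeR adjusted p = 0.0221). Leaving out replicate 2 ended both calls, at an edgeR adjusted p of 0.0536 for Lin7a and 0.161 for Ppfia4.

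Other partners moved in both directions. Among 15 tested neurexin partners, which include the neuroligins and leucine-rich repeat proteins, 1 passed the threshold and the median log2 fold change was -0.11. This was Clstn2, calsyntenin-2, an adhesion protein of the cadherin superfamily, at 10.6, 7.50 and 8.04 CPM in DMSO and 26.6, 16.8 and 17.9 CPM in GSK-126. All 3 GSK-126 values of Clstn2 lay above all DMSO values (log2 fold change 1.22, SE 0.187, edgeR adjusted p = 0.00707). The share of all genes separated upward was not counted. Separation in that direction, here and for Tenm3, Grid2ip and Lmx1a below, is therefore given as description only. Of 20 genes of the LAR-type receptor phosphatases and their ligands, 2 fell and the median was -0.20. These were Slitrk1 at 19.0, 35.6 and 21.7 CPM against 7.58, 18.9 and 10.8 CPM (-1.08, SE 0.176, edgeR adjusted p = 0.00923) and Slitrk4 at 38.5, 52.5 and 33.8 CPM against 12.2, 36.9 and 18.6 CPM (-0.996, SE 0.202, edgeR adjusted p = 0.0221), both postsynaptic ligands of these phosphatases. The Slitrk1 groups did not overlap, by a narrow margin of 18.9 CPM in GSK-126 replicate 2 against 19.0 CPM in DMSO replicate 1. Separation in this direction held for 5.44% of all genes tested. The Slitrk4 groups overlapped.

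Among 15 tested C1q-like proteins, adhesion receptors and their ligands, 2 rose and 1 fell, with a median of -0.18. C1ql1, a C1q-family relative of the cerebellins that climbing fibres supply to Purkinje cells, gave 13.8, 8.50 and 5.91 CPM in DMSO and 25.9, 14.0 and 12.3 CPM in GSK-126. It was higher in each replicate, opposite to Cbln1 and Cbln3, with overlapping groups (log2 fold change 0.89, SE 0.195, edgeR adjusted p = 0.0308). Leaving out any replicate pair ended the call for C1ql1, at edgeR adjusted p values of 0.0750 to 0.148. Tenm3, a teneurin that binds latrophilins, gave 38.8, 46.9 and 36.6 CPM against 55.6, 78.8 and 74.0 CPM, without overlap (0.76, SE 0.131, edgeR adjusted p = 0.0111), and its adjusted p was 0.0508 without replicate 2 and 0.0805 without replicate 3. Adgrb2, an adhesion G protein-coupled receptor, gave 332, 507 and 326 CPM against 273, 328 and 249 CPM and was lower in each replicate (-0.43, SE 0.106, edgeR adjusted p = 0.0491). Scaling the libraries by the RLE factors of DESeq2 ended that call (adjusted p = 0.0530 by edgeR), as did leaving out replicate 2 (0.341) or replicate 3 (0.214).

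The GluD-associated postsynaptic scaffold had 0 of 8 genes called in the block fit, with a median log2 fold change of -0.07 and 1 of 8 at an unadjusted p under 0.05 without the block. That gene was Grid2ip, a scaffold protein of Purkinje cell synapses, at 9 to 23 counts in DMSO and 39 to 48 counts in GSK-126. All 3 GSK-126 values of Grid2ip lay above the DMSO values, and the log2 fold change with the block was 1.22 with an SE of 0.404 (edgeR adjusted p = 0.148). Grid2ip is named because its estimate stood apart, after its values were seen. The 3 STAR-family proteins that regulate the neurexin alternative exon (Khdrbs1, Khdrbs2 and Khdrbs3) had 0 called by edgeR with the block and 0 at an unadjusted p under 0.05 without it, with a median of 0.03.

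**Figure D5:**
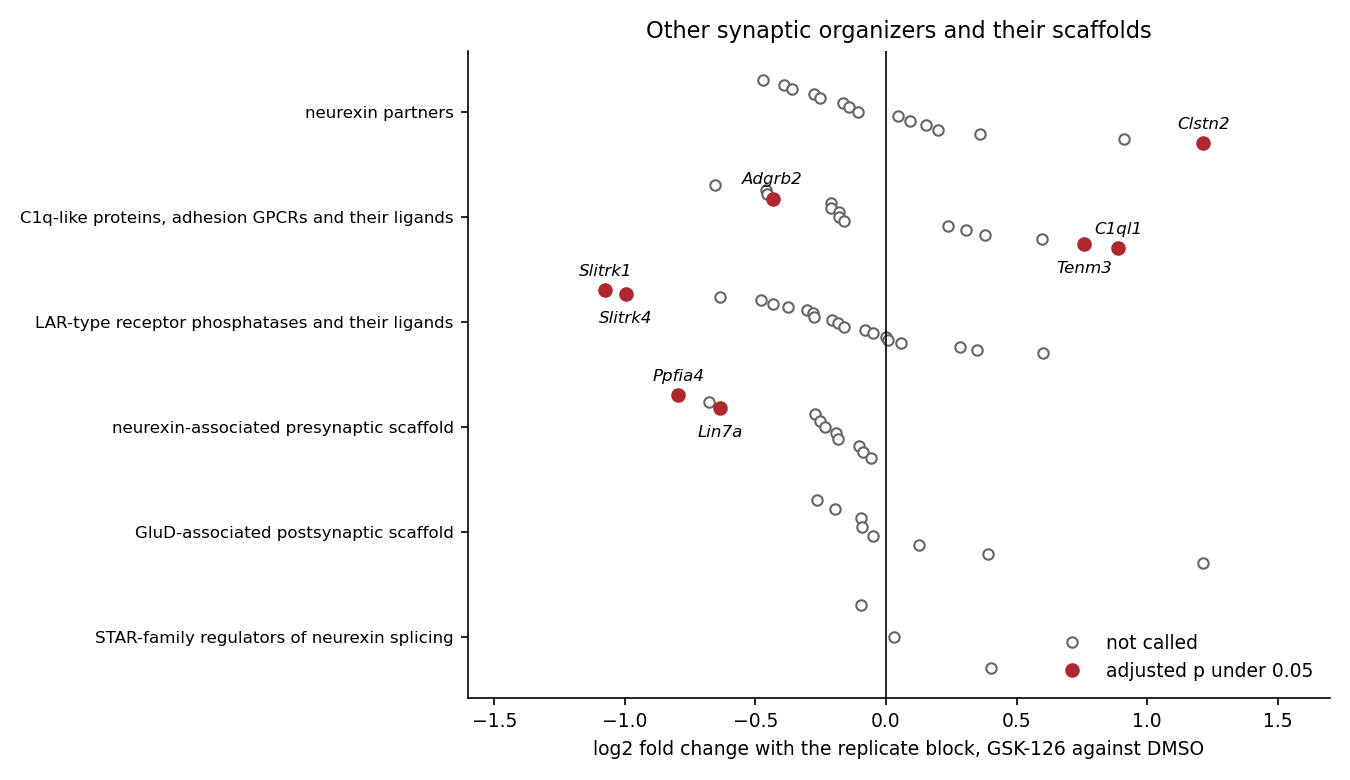
Log2 fold changes with the replicate block (x axis) of the 72 tested organizer genes, 1 circle per gene in order of its estimate within each list. Filled red circles mark the 8 genes past the threshold, 5 below 0 and 3 above, and all 11 presynaptic scaffold genes lie below 0.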

How the data were processed

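Total RNA from cultured CGNs was poly(A)-selected and sequenced in 6 libraries. Per the study's methods and the submitters' processing notes, the authors trimmed reads with Trimmomatic (version 0.38), aligned them to mm10 with STAR (version 2.7.2b) and deposited raw counts per gene over Gencode exons from HTSeq. The strand setting is not given in the sources used here. The 5 summary rows were left out of all totals: 44.8% to 46.8% of each library was without a feature and 9.54% to 10.4% aligned to several places. Fewer reads on genes widen the error of low genes such as Cbln4.

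Counts were tested in R (version 4.3.3) with edgeR (version 4.0.16), using TMM scaling, filterByExpr by group and glmQLFit, without and with the replicate number as a block. The study defines a culture replicate as neurons from pooled litters, and every same-numbered pair correlated above 0.1 (0.351 to 0.517). An adjusted p under 0.05 was called. Alternatives were DESeq2 (version 1.42.0), its RLE scaling, no filter and leaving out libraries. Scripts were tested on simulated data. An exact permutation test compared the ratio of Cbln3 to Cbln1.

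The members and lists were chosen with earlier results of these data known. All members were named, as were organizer genes past the threshold with the block (at most 6 a list) and the 3 genes most correlated with each tested member (log2 CPM, prior count 2). Gene positions and exon sequences came from the GRCm38 annotation and genome. Further genes and sequences that the rule would name are not reported here.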

Additional observations from a re-analysis of the deposited data

How the results depend on the processing

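The replicate block decides the calls. Over all genes edgeR called 0 without it and 597 with the replicate block; for the members the counts were 0 and 3, and for the organizer lists 0 and 8. Without the block, DESeq2 called 59 genes and 1 organizer gene, and dropping the filter on low counts gave 85 genes, 1 member (Cbln3, edgeR adjusted p = 0.00749) and 1 organizer gene, while leaving out any library gave 0 of each. With the block, dropping the filter gave 1136 genes. Leaving out a replicate pair with the block gave 178 to 704 genes, 1 to 3 members and 3 to 9 organizer genes. The lowest counts came without replicate 2, where Cbln3 alone of the members kept its call, and without replicate 3 the counts were 359, 2 and 5. Of 91 alternatives to single-gene values with the block, 66 kept direction and side of the threshold, 24 lost the call and 1 changed sign. Of 130 without it, 112 kept both, 14 gained a call and 4 changed sign. The sign changes came from leaving out libraries in genes that were never called: without the block the log2 fold change ranged from -0.065 to 0.408 for Cbln4 and from -0.148 to 0.110 for Grid1, and with the block it was 0.152 for Grid1 without replicate 3. Why the calls depend on replicate 2 was not tested. Depth limits Cbln2 and Cbln4, and the libraries hold no usable measure of Nrxn2.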

Other observations

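Markers outside the granule lineage also held called genes in the fit with the replicate block. Slc1a6, a glutamate transporter of Purkinje cells, was at 17.1 to 21.0 CPM in DMSO and 33.1 to 43.5 CPM in GSK-126 (log2 fold change 0.995, edgeR adjusted p = 0.00601), whereas Pcp2 gave -0.31 (edgeR adjusted p = 0.795). Pdgfrb, a receptor of mural cells, was at 95.6 to 122 CPM in DMSO and 145 to 182 CPM in GSK-126 (0.63, edgeR adjusted p = 0.0111). Eomes, a transcription factor of unipolar brush cells, was at 7.84 to 19.0 CPM in DMSO and 2.58 to 9.40 CPM in GSK-126 (-1.12, edgeR adjusted p = 0.0332). Lmx1a, the other marker of that list, had an estimate of the opposite sign, at 0.355 to 1.38 CPM in DMSO and 1.60 to 2.75 CPM in GSK-126, higher in 3 of 3 replicates without overlap and not called (1.18, edgeR adjusted p = 0.291).

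The empty run around Nrxn2 was not the only such run. Of runs of at least 8 consecutive protein-coding genes that each held at most 2 counts over all 6 libraries, 5 others were noted after their values were seen, because they include genes used by most cells. They were 19 genes on chromosome 19 (Gstp1 to Pold4, including Ppp1ca), 16 on chromosome 17 (including Nfya), 11 on chromosome 16 (including Ranbp1 and Dgcr8), 9 on chromosome 6 (including Mat2a) and 9 on chromosome 15 (including Zhx1). The cause was not tested.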
